A study of Mus musculus with 6 samples.

Results

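The genes described here encode 9 lineage transcription factors of macrophages, namely Spi1, Cebpa, Cebpb, Cebpd, Maf, Klf2, Klf4, Klf6 and Bhlhe41. They were taken by name from a table of 15415 mouse genes measured by RNA-seq, and all 9 were listed. RNA came from peritoneal macrophages (PEMs), and the level of each gene was given as FPKM, fragments scaled to transcript length and to library depth. The 3 libraries titled PEM-CKO belong to mice of the genotype LysM-Cre; Tim-4 fl/fl and are called knockout libraries below. The 3 titled PEM-Control belong to Tim-4 fl/fl mice without Cre and are called controls. LysM-Cre places Cre under the Lyz2 locus, which is active in macrophages, monocytes and granulocytes, and the floxed stretch of Timd4, the gene of Tim-4, ran from intron 1 to intron 3. Both groups therefore carried the floxed alleles, and the control mice carried no Cre, so the effect of the deletion and that of the Cre allele cannot be told apart. Per the study's methods, PEMs were collected 3 days after 1 ml of 6% starch was injected into male C57BL/6J mice aged 6 to 8 weeks. The treatment entry read lps for all 6 libraries. The methods describe LPS at 1 μg/ml for 3.5 hours for activation, without saying that the sequenced PEMs received that dose. Nothing in the labels says whether the 3 libraries of a group came from separate mice, so the p-values below measure the spread between these libraries, which may be technical.

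PU.1, the product of Spi1, is the ETS factor that opens the enhancers of the myeloid lineage and is held at a high level in macrophages. The C/EBP factors share a leucine zipper, bind the same DNA element and act beside PU.1: C/EBPα drives the step to the granulocyte and monocyte precursor and the differentiated state, and C/EBPβ and C/EBPδ are induced during inflammation. c-MAF, a large MAF factor, and the zinc finger factors KLF2, KLF4 and KLF6 are linked to the maturation and the activation state of macrophages. BHLHE41 is a basic helix-loop-helix repressor that, together with BHLHE40, is known from tissue macrophages and from B-1 cells, a B cell type of the peritoneal cavity.

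The libraries were grouped by title because the genotype entry named the groups the other way round. Timd4 measured 0.333, 0.394 and 0.246 FPKM in knockout libraries 1 to 3, and 19.5, 12.05 and 1.19 FPKM in the controls, in the same order. All knockout libraries were thus below all controls, the direction the titles give, but control library 3 held far less Timd4 than the other controls. Lyz2, the gene of lysozyme M, measured 41.4, 4656 and 106.0 FPKM in the knockout libraries and 7090, 7171 and 8482 FPKM in the controls, so that knockout library 2 stood apart from its group. With limma on log2(FPKM + 1), the adjusted p was 0.0715 for Timd4 and 0.103 for Lyz2. Each factor below is therefore also given with knockout library 2 and with control library 3 left out. Macrophage markers were present in every library, with summed FPKM of 2336 to 10664, of which Lyz2 made the largest part of the difference. Fcgr1, the gene of the Fc receptor CD64, was the marker of that list called, and it was higher in the knockout libraries, at 50.2, 57.5 and 36.1 against 5.16, 5.76 and 6.58 FPKM (log2 fold change 2.82, limma adjusted p 0.00150). Markers of other cells moved with the group. Of all tested genes, limma called 4.74% lower, and 23% lay below every control in every knockout library. All 6 tested B cell markers were lower in the knockout libraries, with summed FPKM of 2.90 to 5.77 against 30.2 to 121.7, although voom on the recovered reads called 2 of them. Of 8 tested markers of large peritoneal macrophages, the resident type, all lay below every control in every knockout library and 6 were called lower (3 with voom). The sums of that list were 142 to 351 against 526 to 1653 FPKM, most of it Serpinb2 (122 to 339 against 435 to 1396 FPKM). Of 3 neutrophil markers, 2 were called lower (1 with voom), at sums of 41.3 to 72.6 against 159 to 172 FPKM, nearly all of it S100a8 (39.9 to 70.5 against 155.5 to 170.7 FPKM). The third, S100a9, overlapped between the groups (limma adjusted p 0.667), and Ngp, Ltf and Cxcr2 were at or near 0 in all 6 libraries. Of 6 mast cell markers, 5 were called lower (5 with voom), at 9.41 to 16.9 against 46.7 to 54.1 FPKM. All 5 of these mast cell calls, 5 of the 6 B cell calls, 3 of the 6 large macrophage calls and 1 of the 2 neutrophil calls were of genes that reached the 1 FPKM filter through the controls alone and could be called only as lower. Hdc, the mast cell marker over that filter in both groups, lay at 7.37 to 15.04 FPKM in the knockout and 4.86 to 12.3 FPKM in the control libraries (log2 fold change 0.47, limma adjusted p 0.404). The part of these cells in any result below was not tested.

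The promoter sequences of 4 of the factors are shown so that a gene whose knockout libraries all lay below the controls (Cebpa, Klf2) stands beside a gene of its family whose groups overlapped (Cebpb, Klf6). Of the 9 genes, 6 were matched in a RefSeq table of mouse promoters on GRCm38.p6 (Cebpa, Cebpb, Klf2, Klf4, Klf6 and Bhlhe41), and each line below gives the 120 bases just before the transcription start. They lie at chr7:35119173-35119292 for Cebpa, chr2:167688795-167688914 for Cebpb, chr8:72318942-72319061 for Klf2 and chr13:5861369-5861488 for Klf6, all on the plus strand. Capitals mark a TATA box, a MEF2 element, an E-box or a CCAAT box, read on both strands, and none of the marked stretches overlap.
Cebpa: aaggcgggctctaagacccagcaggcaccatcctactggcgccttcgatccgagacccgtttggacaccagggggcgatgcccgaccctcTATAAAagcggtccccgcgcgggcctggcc
Cebpb: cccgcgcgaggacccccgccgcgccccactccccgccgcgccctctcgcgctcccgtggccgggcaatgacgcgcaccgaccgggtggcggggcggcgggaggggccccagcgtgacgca
Klf2: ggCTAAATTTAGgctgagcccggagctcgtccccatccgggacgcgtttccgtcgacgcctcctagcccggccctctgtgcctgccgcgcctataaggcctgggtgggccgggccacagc
Klf6: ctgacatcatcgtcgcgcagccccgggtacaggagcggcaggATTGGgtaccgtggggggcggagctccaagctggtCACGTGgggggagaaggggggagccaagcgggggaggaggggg

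The Cebpa promoter holds a TATA box (TATAAA) 30 to 25 bases before the start, and no other of the 6 promoters holds these letters in the 250 bases searched. In Klf2 a MEF2 element (CTA and TAG with any 4 bases between) lies 118 to 109 bases before the start. Klf6 holds an E-box (CACGTG) at 43 to 38 and a CCAAT box on the minus strand at 78 to 74 bases before the start. Over the 32851 promoters of the table, 12.4% hold the TATA box, 3.20% the MEF2 element, 6.02% the E-box and 33.8% the CCAAT box. The C/EBP element (TTGCNNAA), present in 9.56% of the table, was in none of the 6. GC content over the 250 bases was 66.4% for Cebpa, 81.6% for Cebpb, 71.2% for Klf2, 74% for Klf4, 64.8% for Klf6 and 73.6% for Bhlhe41, against a median of 52.4% over the table. These matches describe the letters only.

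Across the 9 factors, Cebpd was higher and Cebpa lower in the knockout libraries, and 7 did not pass the test. The test was limma on log2(FPKM + 1), with Benjamini-Hochberg adjustment over the 9030 genes that reached a mean of 1 FPKM in one group and a threshold of 0.05. No member passed that filter through a single group, since each had at least 1.79 FPKM in every library. The 2 factors called stand beside 7.31% of all tested genes, with 1 factor higher beside 2.57% and 1 lower beside 4.74%. In 4 of the 9 factors the knockout and control libraries did not overlap, Cebpd and Maf being higher and Cebpa and Klf2 lower in every knockout library, beside 34.1% of all tested genes (11.1% higher, 23% lower). The median log2 fold change of the 9 was 0.17 and that of all tested genes -0.11, and when libraries were rescaled by the median of ratios they were 0.32 and 0.01. Over all tested genes, deviations from the group means correlated at 0.109, 0.1095 and 0.3038 between knockout and control libraries of the same number. Knockout library 2 and control library 1 reached 0.2906, so the numbers do not establish a pairing. With that number as a block Maf and Klf2 also passed limma, giving 4 factors called beside 9.47% of tested genes. With no filter on low values, a minimum of 5 FPKM or voom on the recovered reads, Cebpd alone was called, beside 2.89%, 7.54% and 6.52% of tested genes. Cebpa and Cebpd were both called with a pseudocount of 0.1 (7.66% of tested genes) and after rescaling (7.41%). Leaving out 1 library at a time gave 0 to 2 factors called. The limma count was 0 in 3 of these fits, those lacking knockout library 1 (0.332% of tested genes called), knockout library 2 (0.698%) and control library 2 (0.0886%), in which 4, 3 and 4 factors had an unadjusted p under 0.05, beside 17.8%, 16% and 19.7% of tested genes. It was 1 without knockout library 3 (5.83% of tested genes), and 2 without control library 1 (8.7%) or control library 3 (14.2%).

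**Figure D1:**
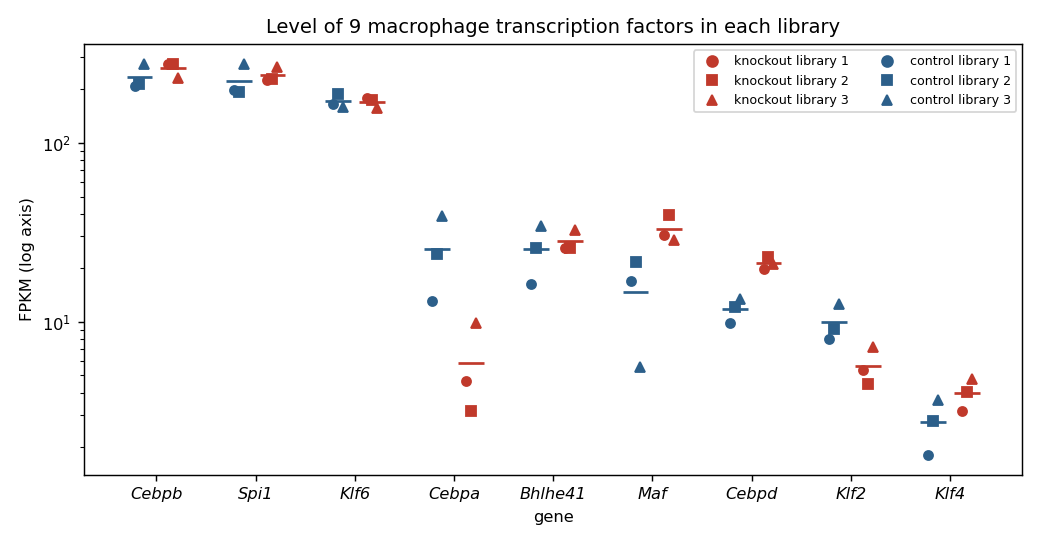
FPKM of each factor in each library on a log axis, with knockout libraries in red, control libraries in blue and a bar at each group's mean. Cebpa lies between 3.16 and 9.84 FPKM in the knockout libraries and between 13.1 and 39.2 in the controls, while the symbols of Spi1, Cebpb and Klf6 overlap.

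Spi1 (Entrez 20375) was among the highest factors in both groups. It measured 223.1, 226.4 and 266.8 FPKM in the knockout libraries and 198.3, 191.1 and 276.0 FPKM in the controls. The groups overlapped, because control library 3 held the highest level of the 6. The log2 fold change was 0.12 (SE 0.18, 95% interval -0.29 to 0.53), with a limma adjusted p of 0.685. It was 0.16 without knockout library 2 and 0.29 without control library 3, ranged down to 0.02 without control library 2 (0.04 without knockout library 3, 0.05 without control library 1) and was 0.27 after rescaling and with voom. The limma adjusted p stayed between 0.201 and 0.954 over the 12 alternative fits.

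The C/EBP factors differed in direction. Cebpa (Entrez 12606) measured 4.66, 3.16 and 9.84 FPKM in the knockout libraries and 13.1, 24.0 and 39.2 FPKM in the controls. Its reads numbered 516, 352 and 1062 against 1360, 2460 and 3736, so counting error was small next to the spread between libraries. All knockout libraries lay below all controls, with group means of 5.89 ± 3.51 (SD, n = 3) and 25.4 ± 13.1 FPKM (SD, n = 3), a ratio of means of 4.32. Cebpa fell by 1.93 on the log2(FPKM + 1) scale (SE 0.46, 95% interval -3.002 to -0.86), with a limma adjusted p of 0.0497, just inside the threshold.

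The Cebpa call passed in 5 of 12 alternative limma fits, with adjusted p from 0.0161 with the replicate block to 0.184 without knockout library 2. The direction held in all of these fits, from -2.32 to -1.56 when 1 library was left out. Because the groups did not overlap, leaving out 1 library could not turn it. Without knockout library 2 the log2 fold change was -1.63, and without control library 3 it was -1.56, with a limma adjusted p of 0.0524. Without knockout library 1 and without control library 2 the limma adjusted p was 0.171 and 0.172. In bulk RNA, fewer cells of a type and less Cebpa RNA in each cell cannot be told apart. Among the controls Cebpa was highest in library 3 and lowest in library 1, while summed B cell markers ran the other way, at 121.7, 84.3 and 30.2 FPKM in control libraries 1, 2 and 3. Large peritoneal macrophage markers were also lowest in control library 3, at 526 against 1653 and 1528 FPKM in control libraries 1 and 2. S100a8, from the neutrophil list, and mast cell markers were lower in the knockout libraries, as given above. The other neutrophil markers except Camp were not called. Control library 1 held 170.7 FPKM of S100a8 and 0 FPKM of S100a9, so S100a8 was not read as a measure of neutrophils. The part of these cells in the Cebpa level was not tested. A long non-coding gene, Gm45091, overlaps Cebpa on the opposite strand in GENCODE M21, and since the strand setting of the counting is not given in the sources used here, its reads cannot be told apart from those of Cebpa.

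Cebpd (Entrez 12609) measured 19.6, 23.1 and 21.1 FPKM in the knockout libraries and 9.80, 12.02 and 13.3 FPKM in the controls. Every knockout library exceeded every control, and the spread within each group was narrow, with means of 21.3 ± 1.75 and 11.7 ± 1.79 FPKM (SD, n = 3 each). Cebpd rose by 0.82 on the log2(FPKM + 1) scale (SE 0.15, 95% interval 0.47 to 1.17), with a limma adjusted p of 0.0254. It passed in 8 of 12 alternative fits, with limma adjusted p from 0.0102 without control library 3 to 0.134 without knockout library 2. Its fold change stayed between 0.70 and 0.91 with 1 library left out, and the call was also lost when knockout library 1 or 3 was left out, at limma adjusted p of 0.0969 and 0.0577, and when control library 2 was, at 0.104. The gene Spidr, which overlaps Cebpd on the opposite strand, lay at 2.95 to 6.21 FPKM (log2 fold change -0.37, limma adjusted p 0.272). Cebpd is also known from fibroblasts. Summed markers of mesothelial cells and fibroblasts were 12.4, 34.5 and 15.2 FPKM in the knockout libraries and 2.08, 6.35 and 13.5 FPKM in the controls, with 0 of 4 tested markers called by limma or voom and 2 at an unadjusted p under 0.05, and their part in the Cebpd level was not tested.

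Cebpb (Entrez 12608), the highest of the 9 factors by group mean FPKM, though below Spi1 in knockout library 3, measured 276.6, 275.3 and 230.1 FPKM in the knockout libraries and 209.0, 212.5 and 277.3 FPKM in the controls. Control library 3 reached the level of the highest knockout libraries, so the groups overlapped. The log2 fold change was 0.17 (SE 0.16, 95% interval -0.21 to 0.54, limma adjusted p 0.521), 0.13 without knockout library 2 and 0.30 without control library 3. It was 0.10 without control library 1, 0.11 without control library 2 and 0.32 after rescaling and with voom. Tmem189, which overlaps Cebpb on the opposite strand, measured 61.2 to 107.9 FPKM.

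**Figure D2:**
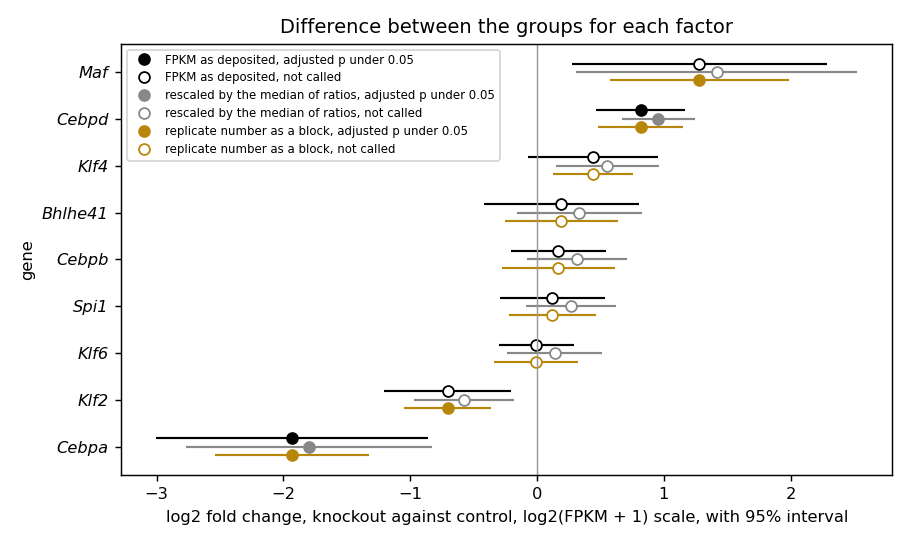
Log2 fold change of each factor, knockout against control, on the log2(FPKM + 1) scale, with the 95% interval from limma as a horizontal bar. Cebpa at -1.93 and Cebpd at 0.82 passed the threshold, and the intervals of Maf and Klf2 also leave out 0 before adjustment.

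Within libraries, where a common scaling of all genes drops out, the C/EBP factors stood in different proportions. Cebpd was 4.22, 7.31 and 2.14 times Cebpa by FPKM in the knockout libraries, and 0.750, 0.502 and 0.340 times Cebpa in the controls. Cebpd was thus the higher of the pair in every knockout library and the lower in every control. Cebpa made up 1.55, 1.05 and 3.77% of the summed FPKM of Cebpa, Cebpb and Cebpd in the knockout libraries and 5.64, 9.64 and 11.9% in the controls. Cebpb made up 84.1 to 91.9% of that sum in all 6 libraries. The ratio of Cebpb to Cebpd was 14.1, 11.9 and 10.9 in the knockout libraries and 21.3, 17.7 and 20.8 in the controls, again without overlap. These pairs and those of the KLF factors, 5 in all, were chosen after the levels had been seen, so they are descriptions with no test.

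**Figure D3:**
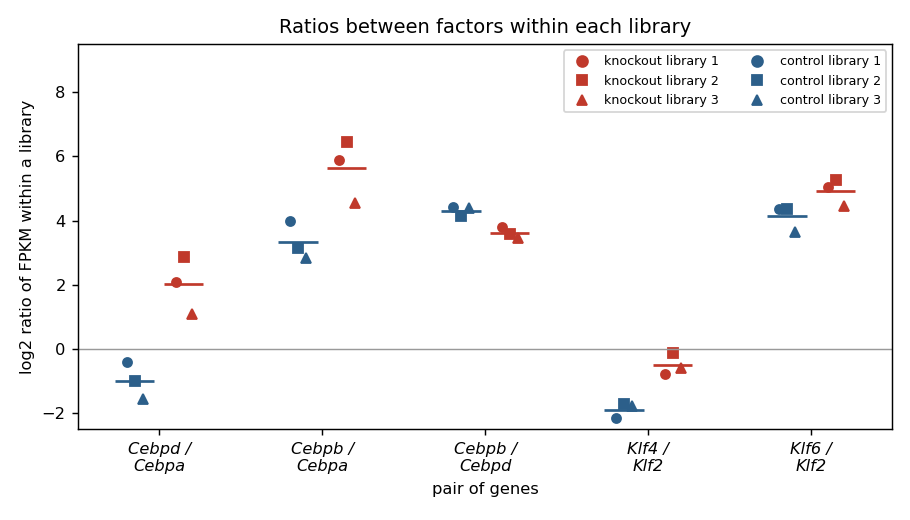
Log2 ratio of FPKM between pairs of factors within each library, knockout libraries in red and control libraries in blue, with a bar at each group's mean. The 3 knockout libraries do not overlap the 3 controls in any of the 5 pairs, which were chosen after the levels had been seen. Each pair holds Cebpa, Cebpd or Klf2, whose own levels do not overlap between the groups. The mean log2 ratio of Cebpd to Cebpa is 2.02 in the knockout and -0.99 in the control libraries.

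Maf (Entrez 17132), the gene of c-MAF, measured 30.6, 39.2 and 28.5 FPKM in the knockout libraries and 16.8, 21.4 and 5.57 FPKM in the controls. All knockout libraries lay above all controls, and control library 3 was the lowest by a wide margin. The log2 fold change was 1.28 (SE 0.43, 95% interval 0.27 to 2.29), which missed the threshold at a limma adjusted p of 0.111. With the replicate block the limma adjusted p was 0.0492. Without control library 3 the log2 fold change was 0.75 and the limma adjusted p 0.0396, in a fit that called 14.2% of all tested genes. Without knockout library 2 they were 1.15 and 0.334, the highest adjusted p of the alternatives. The gene Gm15655 overlaps Maf on the opposite strand.

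Of the KLF factors among the 9, 0 passed limma in the main fit or voom. Klf2 had an unadjusted p under 0.05 in the main fit, beside 27.6% of tested genes, and Klf2 and Klf4 did with voom, beside 26.9%. Klf2 (Entrez 16598), a factor of quiescent lymphocytes, endothelium and monocytes, measured 5.38, 4.46 and 7.18 FPKM in the knockout libraries and 7.95, 9.15 and 12.6 FPKM in the controls. Every knockout library was below every control, though knockout library 3 came close to control library 1. The log2 fold change was -0.71 (SE 0.21, 95% interval -1.21 to -0.20), with limma adjusted p of 0.0881 in the main fit and 0.0366 with the replicate block. Leaving out 1 library gave -0.86 to -0.53, with limma adjusted p from 0.0619 to 0.310. The fold change was -0.57 without knockout library 2 and -0.53 without control library 3. Klf2 is well known from resting B and T cells, and the tested B cell markers were lower in the knockout libraries. T or NK cell markers summed to 1.15 to 1.95 FPKM there and to 2.86 to 11.5 FPKM in the controls, with 1 of 2 tested markers called lower by limma and 0 by voom. The marker called, Cd2, reached the filter through the controls alone, and the other, Lck, overlapped between the groups (limma adjusted p 0.825). Among the controls Klf2 was highest in library 3, where both the B cell and the T or NK cell sums were lowest. The part of lymphocytes in the Klf2 level was not tested.

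Klf4 (Entrez 16600), a factor of monocyte differentiation, had the lowest group mean FPKM of the 9 in both groups, though it was above Cebpa in knockout library 2. It measured 3.16, 4.05 and 4.81 FPKM in the knockout libraries and 1.79, 2.77 and 3.65 FPKM in the controls. The groups overlapped, knockout library 1 lying below control library 3. The log2 fold change was 0.44 (SE 0.22, 95% interval -0.07 to 0.95, limma adjusted p 0.235), 0.43 without knockout library 2 and 0.61 without control library 3 (limma adjusted p 0.0855). It was lowest without control library 1, at 0.25, and was 0.73 with voom. The ratio of Klf4 to Klf2 was 0.587, 0.909 and 0.669 in the knockout libraries and 0.225, 0.302 and 0.290 in the controls, which did not overlap. Klf6 (Entrez 23849), induced early upon activation, measured 177.8, 172.5 and 157.2 FPKM in the knockout libraries and 164.5, 186.8 and 159.3 FPKM in the controls. Its log2 fold change was -0.01 (SE 0.13, 95% interval -0.30 to 0.29, limma adjusted p 0.977), an interval narrower than that of the other factors, and the sign turned under rescaling, to 0.14. It was -0.02 without knockout library 2 and -0.05 without control library 3.

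Bhlhe41 (Entrez 79362) measured 25.8, 25.8 and 32.7 FPKM in the knockout libraries and 16.2, 25.7 and 34.2 FPKM in the controls. The controls spanned the whole range of the knockout libraries. The log2 fold change was 0.19 (SE 0.26, 95% interval -0.42 to 0.81, limma adjusted p 0.662), and without control library 1 it was -0.09. It was 0.25 without knockout library 2, 0.08 without knockout library 3, 0.43 without control library 3, and 0.33 and 0.35 after rescaling and with voom. Among the controls Bhlhe41 was lowest in library 1, where the summed B cell markers were highest, and the part of B cells in its level was not tested. The gene Gm43909 overlaps Bhlhe41 on the opposite strand.

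**Figure D4:**
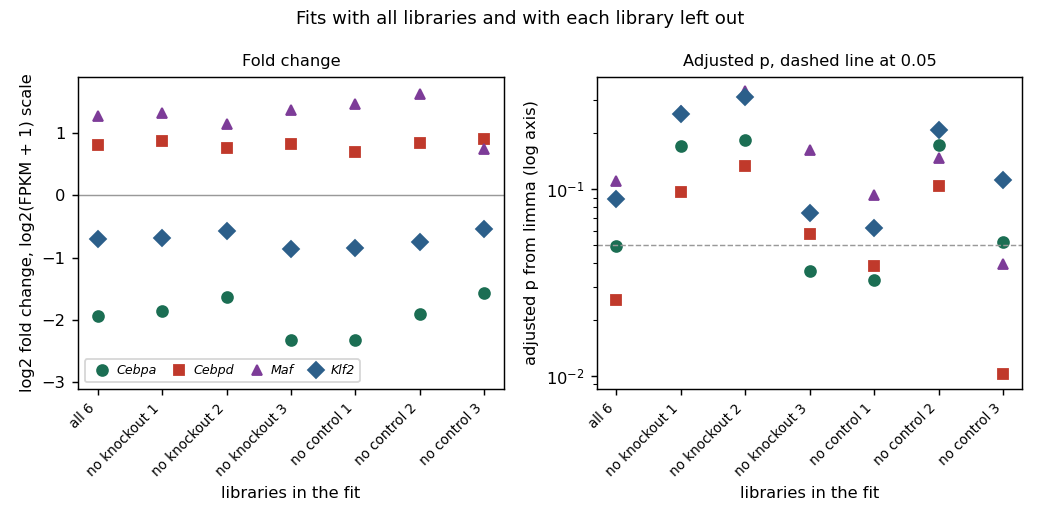
Log2 fold change (left, log2(FPKM + 1) scale) and limma adjusted p (right, log axis, dashed line at the threshold of 0.05) of Cebpa, Cebpd, Maf and Klf2 with all 6 libraries and with each left out. The 4 directions hold in every fit, as they must, because the knockout and control libraries of these 4 factors do not overlap. Of the 4 adjusted p-values, 0 lie under the line without knockout library 1, knockout library 2 or control library 2.

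Ordered by mean FPKM, a scale per length, the same 3 factors led in both groups. Cebpb, Spi1 and Klf6 had means of 260.6 ± 26.5, 238.7 ± 24.3 and 169.2 ± 10.7 FPKM in the knockout and 232.9 ± 38.5, 221.8 ± 47.1 and 170.2 ± 14.6 FPKM in the control libraries (SD, n = 3 each). Cebpb and Spi1 overlapped in their ranges in both groups, whereas Spi1 and Klf6 did not. Cebpa held the 4th place in the controls and the 7th in the knockout libraries, and Maf the 6th and the 4th. In the controls the neighbours from Cebpa to Klf2 (Cebpa, Bhlhe41, Maf, Cebpd and Klf2) each overlapped the next. In the knockout libraries Maf overlapped Bhlhe41, while Bhlhe41, Cebpd and Cebpa were apart from each other. Klf4 came last in both groups, overlapping Klf2 in the knockout libraries only.

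The genes closest to each factor were found among 5460 tested genes with a mean of at least 5 FPKM, by the root mean square difference of their centred log2(FPKM + 1) values over the 6 libraries. Libraries of 1 group share that group's condition, so the likeness is a description. Klf6 had the nearest neighbour, Dnaja2, a co-chaperone, at 0.02, followed by Rsl24d1 at 0.04. Crcp and Acot7 lay closest to Spi1, at 0.03 each. Mlxip at 0.04 and Il6st, the gp130 chain of the IL-6 receptor family, at 0.05 lay closest to Cebpb. Necap1 at 0.06 and Flrt2 at 0.08 were nearest to Cebpd, and Pde6d at 0.04 and Zbtb18 at 0.06 to Bhlhe41. Klf4 was followed by Taf15 at 0.08 and Mpnd at 0.09.

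Cebpa and Maf had no neighbour under 0.18. Spic, an ETS factor of red pulp and other resident macrophages, was closest to Cebpa at 0.18. It measured 0.921, 0.262 and 2.32 FPKM in the knockout libraries and 3.20, 7.85 and 16.2 FPKM in the controls, so that both genes were lowest in knockout library 2 and highest in control library 3. Gm20658, at 0.19, came next, in the same order of libraries. Gbp7 at 0.20 and Gm12250 at 0.21, both of interferon-inducible GTPase families, lay closest to Maf. Gbp7 measured 104.5, 111.1 and 79.2 FPKM in the knockout libraries and 72.4, 70.6 and 21.8 FPKM in the controls. Closest to Klf2 were Pus1 at 0.08 and the proton channel gene Hvcn1 at 0.09, which is abundant in B cells and phagocytes. Hvcn1 measured 134.2, 113.4 and 148.5 FPKM in the knockout libraries against 183.3, 188.2 and 253.7 FPKM in the controls.

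Other members of the factors' families were called in both directions, beside 2.57% of all tested genes called higher and 4.74% called lower. Of the 11 genes called in these and the target lists below, limma also called 1 (Tfec) without knockout library 1 and without knockout library 2, 7 without knockout library 3, 9 without control library 1, 0 without control library 2 and 10 without control library 3. Spib, Ets1, Nr4a1 and Runx3 reached the filter on low values through the controls alone, so they could be called only as lower. Of 11 tested ETS factors, Etv6, a repressor, was higher, and Spib, the PU.1 relative of B cells and plasmacytoid dendritic cells, and Ets1, of lymphocytes, were lower, with a list median of -0.29 on the log2 scale. With voom 1 of the 11, Ets1, was called. Spib measured 0.545, 0.232 and 0.246 FPKM in the knockout libraries and 6.41, 4.28 and 1.91 FPKM in the controls (log2 fold change -1.86, limma adjusted p 0.0216). Ets1 lay at 0.260 to 0.294 against 1.04 to 2.45 FPKM (-1.13, limma adjusted p 0.0248). Among the controls both were lowest in library 3, as the summed B cell markers were, and the part of B cells in them was not tested. Etv6 measured 20.9, 22.5 and 15.6 FPKM against 12.1, 11.8 and 9.61 FPKM (0.75, limma adjusted p 0.0454).

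Of the 3 other tested C/EBP factors, 0 passed limma or voom and 1 had an unadjusted p under 0.05. Cebpz, with the lowest p, lay at 3.16 to 4.07 FPKM in the knockout and 4.85 to 6.33 FPKM in the control libraries (-0.55, limma adjusted p 0.0634). Of 3 other tested MAF factors, the small factor Mafk, which lacks a transactivation domain, was higher, at 15.3, 15.9 and 11.5 against 5.75, 5.86 and 5.52 FPKM (1.17, limma adjusted p 0.0113). Mafk thus rose beside Maf, which did not pass. Of 8 other KLF factors Klf9, a target of glucocorticoids and thyroid hormone, passed limma, and voom called Klf8 as well. It measured 2.24, 2.72 and 5.15 FPKM in the knockout libraries and 11.7, 15.3 and 12.4 FPKM in the controls (-1.74, limma adjusted p 0.0133). Of Bhlhe40 and 4 MITF and TFE factors, Tfec, a macrophage member of that family, was lower, at 13.5, 9.91 and 10.8 against 32.3, 31.1 and 26.7 FPKM (-1.33, limma adjusted p 0.00963). Bhlhe40 lay at 40.0 to 53.5 FPKM in the knockout and 25.2 to 70.4 FPKM in the control libraries, which overlapped.

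Among 14 tested factors of monocyte and resident macrophage identity, 1 was higher and 3 were lower, with a list median of -0.21. Of all tested genes, 2.57% were called higher and 4.74% lower. Voom called Nr1h3, Runx1 and Id2, and not Nr4a1 or Runx3. Nr1h3, the oxysterol receptor LXRα, measured 10.4, 13.3 and 10.8 FPKM in the knockout libraries and 4.07, 5.07 and 7.05 FPKM in the controls (0.98, limma adjusted p 0.0320). Nr4a1, an early-response nuclear receptor of patrolling monocytes, measured 0.548, 0.439 and 0.868 FPKM against 4.25, 2.93 and 1.75 FPKM (-1.26, limma adjusted p 0.0292). Runx1, which acts with PU.1 at myeloid enhancers, lay at 5.74 to 9.01 against 11.8 to 14.5 FPKM (-0.79, limma adjusted p 0.0413). Runx3 was scarce in both groups, at 0.130 to 0.401 against 0.869 to 1.60 FPKM (-0.80, limma adjusted p 0.0337). Gata6, the factor of resident large peritoneal macrophages, did not pass the filter on low values, at 0.117 to 1.07 FPKM over all 6 libraries.

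**Figure D5:**
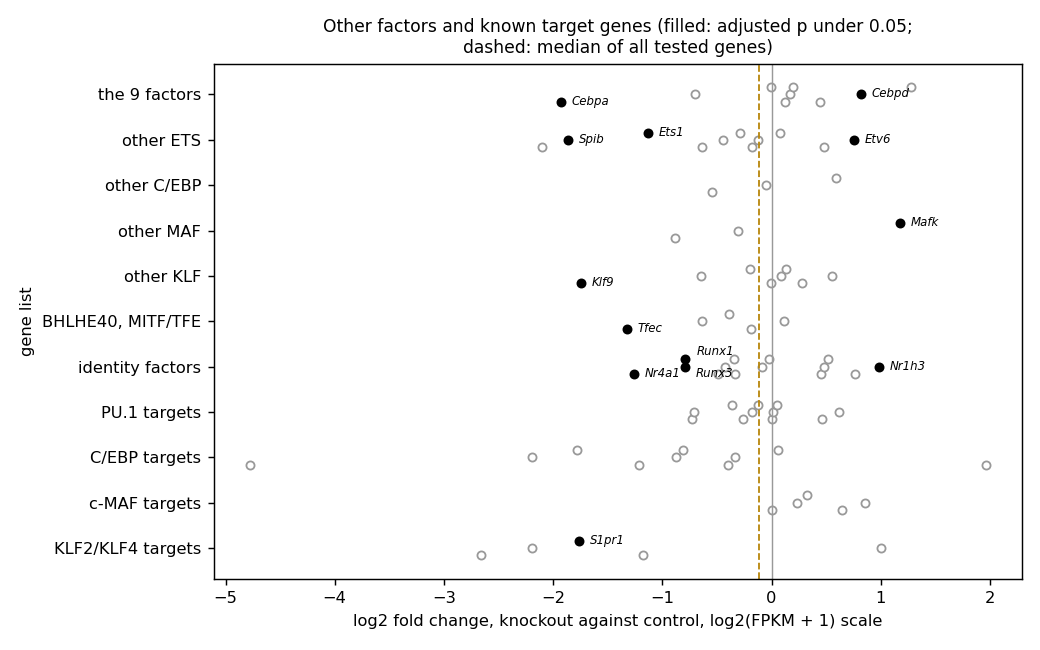
Log2 fold change, knockout against control, of each tested gene in the lists of related factors and of known target genes, on the log2(FPKM + 1) scale, with filled symbols for a limma adjusted p under 0.05 and a dashed line at the median of all tested genes, -0.11. Filled symbols stand on both sides of 0 for the 9 factors, the other ETS factors and the identity factors, and the lists of PU.1, C/EBP and c-MAF target genes hold none. Of all tested genes, 7.31% were called.

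Known target genes of the factors were mostly not called, like tested genes at large, of which 7.31% were called. Of 11 tested genes driven by PU.1, 0 passed the main limma fit or voom. An unadjusted p under 0.05 was found for 4, beside 27.6% of all tested genes. Of the 11, 5 lay above 0, with a median of -0.13. Csf1r, the receptor of the macrophage growth factor CSF-1, had the lowest p, at 88.7, 83.3 and 143.4 against 179.6, 151.5 and 174.1 FPKM (-0.71, limma adjusted p 0.0903). Limma called Csf1r without knockout library 3, and Cd68 and Msr1 without control library 3. Of 10 genes driven by C/EBP factors, 0 passed the main limma fit or voom. Of these 10, 5 had an unadjusted p under 0.05 and 2 lay above 0, with a median of -0.85. Csf3, the gene of G-CSF, measured 21.8, 13.5 and 24.5 FPKM in the knockout libraries and 62.0, 49.8 and 32.0 FPKM in the controls (-1.22, limma adjusted p 0.0522). Nos2, the inducible nitric oxide synthase, lay in the other direction, at 178.7, 243.8 and 100.3 against 76.8, 46.6 and 19.4 FPKM (1.96, limma adjusted p 0.0621). Nos2 passed limma with the replicate block and without control library 1. Csf3, Il6, Ptgs2 and Saa3 passed without control library 3, Arg1 without knockout library 3 and Lyz2 without knockout library 2. Into Lyz2, a gene of this C/EBP list, the Cre allele is inserted.

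The 5 tested c-MAF target genes had fold changes above 0, C1qa by 0.007, with a median of 0.32. Of these 5, 0 passed the main limma fit or voom and 1 had an unadjusted p under 0.05. C1qb, a chain of complement C1q, measured 251.7, 273.1 and 251.6 FPKM in the knockout libraries against 193.2, 150.8 and 98.1 FPKM in the controls (0.86, limma adjusted p 0.0708). Limma called C1qb without control library 1 and without control library 3. C1qb was lowest in control library 3, as Maf was. Cd163, a scavenger receptor of the same list that did not pass the filter on low values, lay at 0.037, 0.058 and 0.260 FPKM against 0.837, 0.780 and 0.300 FPKM. Of 5 tested target genes of KLF2 or KLF4, the list that also holds Timd4, S1pr1 was lower. S1pr1, the sphingosine 1-phosphate receptor of lymphocyte egress, measured 0.927, 0.516 and 2.02 FPKM against 6.36, 6.35 and 5.32 FPKM (-1.76, limma adjusted p 0.0130). S1pr1 is abundant in lymphocytes. The tested B cell markers were lower in the same libraries, while of the tested T or NK cell markers Cd2 was called lower and Lck overlapped. Over control libraries 1 to 3, where S1pr1 changed little, summed B cell markers were 121.7, 84.3 and 30.2 FPKM. T or NK cell markers there summed to 11.5, 7.31 and 2.86 FPKM. The part of lymphocytes in the S1pr1 level was not tested.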

How the data were processed

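RNA-seq of PEMs gave 6 libraries, 3 per group, grouped by title. The deposited table holds the authors' FPKM per gene and library and their mean signal per group, read counts divided by size factors. Build mm9 is named in the submitters' processing notes, and the aligner, counter, annotation and strand setting are not given in the sources used here. Its fold change, p-value and q-value columns were not used. From FPKM and group means all values returned whole reads (tolerance 0.1), 36170767 to 42217558 per library. The main test was limma 3.58.1 (R 4.3.3; lmFit, eBayes with trend, two-sided) on log2(FPKM + 1), which understates changes of low genes, for 9030 genes with a mean of at least 1 FPKM in one group, with Benjamini-Hochberg adjustment and a threshold of 0.05. The procedure was tested on simulated data. Alternatives were no filter, a minimum of 5 FPKM, a pseudocount of 0.1, median-of-ratios rescaling, voom on the recovered reads, the replicate number as a block, and each library left out.

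Same-numbered libraries correlated at 0.109, 0.1095 and 0.3038 in their deviations from the group means, all over 0.1, and differently numbered ones at -0.3319 to 0.2906, the highest being knockout library 2 with control library 1. The number was taken to pair them because each same-number value was over 0.1. The sources do not say what it stands for. The members and lists were chosen with earlier results of these data known, and 1 gene was dropped from a list and is not reported here. Besides the 9 factors, Timd4 and Lyz2, the text names up to 3 called genes per direction and factor or target list, or the gene with the lowest p where none was called, and the 2 closest genes of each factor. Bhlhe40, Gata6, Klf8, Id2, the markers named singly, Nos2, C1qa and Cd163, the genes named from alternative fits, the overlapping genes, the cell markers' sums and the ratios were chosen after values were seen.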

Additional observations from a re-analysis of the deposited data

How the results depend on the processing

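The number of the 9 factors called, 2 in the main fit, was 1 with no filter, 1 with a minimum of 5 FPKM, where Klf4 was not tested, 1 with voom on recovered reads (Cebpd each time; Cebpa had adjusted p of 0.0877, 0.0523 and 0.0509 by limma), and 4 with the replicate block. Leaving out a library gave 0 to 2 factors, 8 to 1278 genes of all tested against 660, and 0 to 21 genes of the other factor and target lists against 11. Both gene counts were lowest without control library 2 and highest without control library 3. A minimum of 5 FPKM gave 436 genes, and 7 in the other lists. The replicate block gave 855 genes and, of the 9 factors, changed the calls of Maf and Klf2 only. In the other factor and target lists it gave 16 genes, the 11 of the main fit plus Axl, Mafg, Nos2, Spic and Timd4. Rescaling gave 669 genes, 343 higher and 326 lower, against 232 higher and 428 lower in the main fit. Klf6 turned to 0.14 with rescaling and with voom and ranged from -0.053 to 0.061 with 1 library left out, being above 0 without knockout library 3 (0.045) and without control library 2 (0.061). Bhlhe41 ranged from -0.086 without control library 1 to 0.431. Timd4 passed limma with a pseudocount of 0.1 (-4.005, adjusted p 0.0458) and with the replicate block (-2.66, adjusted p 0.0436), while voom gave -4.18 with an adjusted p of 0.218. With 1 library left out Timd4 ranged from -3.63 to -2.01 and Lyz2 from -6.81 to -3.42, passing without control library 3 and without knockout library 2. The cause of these changes was not tested.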
